A study of Mus musculus with 4 samples.

Results

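The proteasome is the protease that degrades ubiquitin-tagged proteins, and the genes described here encode its subunits and the factors that assemble, activate or inhibit it. They were chosen by name, as the protein-coding genes whose GENCODE vM1 symbol is Psm followed by one letter from a to g and a number. The rule found 50 of the 37310 rows of the count table, which carry 48 symbols because *Psmb9* and *Psmd14* are each annotated as 2 genes. The cells were mESCs, the embryonic stem cells of mouse, from the line named HATX, grown in serum with LIF, and their RNA was sequenced. In this line *Xist*, the RNA that silences an X chromosome, sits as a transgene under doxycycline control. A first group of 2 libraries came from wild-type (WT) cells, and a second group of 2 from clone 2 of a *Spen* knockout (KO) of these cells. Both groups carried the transgene on a mixed strain background. Spen is an RNA-binding repressor that *Xist* needs for silencing, and the study describes the cells as haploid with a deletion of *Spen*. No treatment is given in the labels. The KO group is a single clone, so an effect of the deletion and a trait of the clone cannot be told apart. Nothing in the labels says that the libraries of a group came from separate cultures, and p-values measure only the spread between these libraries.

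The WT libraries held 36667685 and 43835004 counts in total and the KO-labelled libraries 54715889 and 61908422. Both pairs differed by more than sampling noise (chi-square per degree of freedom of 36.9 and 14.3), and each library was kept as a replicate. Such a spread does not show that the libraries of a group came from separate cultures. *Spen* itself had 3716 and 3047 normalized counts (counts divided by the library's size factor) in WT and 7797 and 6242 in the KO-labelled libraries. Its log2 fold change of 1.05 ± 0.21 (SE) is over the whole gene and gives no value for a deleted stretch alone, so it does not check the label, and directions below are those of the libraries as labelled. The 7 stem cell markers were abundant in all libraries, with *Dppa5a* and *Zfp42* higher (0.28 and 0.23 on the log2 scale, neither called with chromosome medians removed, and 88.2% and 58.3% of their exonic bases in copies) and none lower, and the 7 fibroblast markers summed to between 79.2 and 96.8 normalized counts.

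As background, the 20S core is a barrel of stacked rings in which alpha subunits form the gate and beta subunits *Psmb5*, *Psmb6* and *Psmb7* carry the cutting sites. The 19S regulatory particle binds ubiquitin, removes it and feeds the substrate into the barrel with a ring of ATPases. In immune cells and under interferon, *Psmb8*, *Psmb9* and *Psmb10* replace the 3 cutting subunits to form the immunoproteasome, which favours peptides for MHC class I. Vertebrate cells that lose proteasome activity raise many subunit genes together through the transcription factor *Nfe2l1*, which acts at antioxidant response elements.

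Promoter sequences are shown for 4 of the genes whose RNA differed most between the groups. They set side by side ubiquitous subunits that rose, an inducible subunit and the gene that fell most. Each is the 250 bases before an annotated RefSeq start, read 5′ to 3′ on the gene's strand in build GRCm38.p6, which is not the build of the count table. RefSeq windows were found for 40 of the 48 symbols. Capitals mark matches, on either strand, to 4 motifs. These are the ETS core with the letters CCGGAAG, the antioxidant response element core with the letters TGACNNNGC, the interferon-related GAS element with the letters TTCNNNGAA, and the box named by its letters, CCAAT.
*Psmc2* (chr5:21785025-21785274, plus strand): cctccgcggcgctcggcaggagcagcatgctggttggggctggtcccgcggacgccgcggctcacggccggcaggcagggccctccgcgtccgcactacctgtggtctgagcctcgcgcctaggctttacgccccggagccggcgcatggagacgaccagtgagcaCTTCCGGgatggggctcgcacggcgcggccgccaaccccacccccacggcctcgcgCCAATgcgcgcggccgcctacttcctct
*Psmd12* (chr11:107479278-107479527, plus strand): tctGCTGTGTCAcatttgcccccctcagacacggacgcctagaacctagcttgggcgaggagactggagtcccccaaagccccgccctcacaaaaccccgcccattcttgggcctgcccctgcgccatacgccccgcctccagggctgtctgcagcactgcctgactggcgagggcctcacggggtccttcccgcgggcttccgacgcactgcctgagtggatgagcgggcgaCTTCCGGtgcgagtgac
*Psmb10* (chr8:105938393-105938642, minus strand): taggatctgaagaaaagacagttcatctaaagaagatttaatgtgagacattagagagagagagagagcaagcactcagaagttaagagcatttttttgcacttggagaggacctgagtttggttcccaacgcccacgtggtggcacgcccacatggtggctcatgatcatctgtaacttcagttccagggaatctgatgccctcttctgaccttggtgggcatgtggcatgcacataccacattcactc
*Psmg4* (chr13:34162714-34162963, plus strand): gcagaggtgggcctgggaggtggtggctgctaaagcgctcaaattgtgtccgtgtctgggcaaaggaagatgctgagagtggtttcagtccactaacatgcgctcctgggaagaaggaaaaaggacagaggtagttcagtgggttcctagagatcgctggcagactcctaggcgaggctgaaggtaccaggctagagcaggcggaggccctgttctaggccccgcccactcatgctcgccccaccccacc

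The *Psmc2* window held the ETS core from 84 bases before the start and a CCAAT box from 28 bases before it. The window of a second annotated *Psmc2* start, not printed, held the ETS core from 24 bases before that start and no CCAAT box. The *Psmd12* window held the ETS core from 17 and the antioxidant core from 247 bases before the start. No match to the 4 motifs was found in the windows of *Psmb10* and *Psmg4*. Across the 43 windows of the proteasome genes the ETS core was found in 30.2%, against 8.98% of 21263 windows of protein-coding genes. The antioxidant core was found in 11.6% against 10.4%, the CCAAT box in 32.6% against 35.4%, and the GAS element in 4.65% against 6.58%. Of 15 genes that were higher in KO-labelled libraries and had a window, 5 held the ETS core, and so did 7 of the 23 other tested genes with a window. A match of letters is a description and not a bound site.

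Of the tested proteasome genes 26 did not pass the test, 17 were higher in KO-labelled than in WT mESCs, mostly by small amounts, and 3 were lower, among them *Psmg4* by more than a factor of 2. Of the 50 rows, 46 could be tested. The 2 *Psmb9* rows and the second *Psmd14* row had no count in any library, and *Psmb11* had too few for an adjusted p. With DESeq2 and an adjusted p under 0.05, 17 of the 46 genes were higher and 3 lower (*Psmg4*, *Psma8* and *Psmb2*). The 17 became 8 without WT replicate 2, 9 without KO-labelled replicate 2 and 11 with chromosome medians removed, and the 3 became 1 without WT replicate 1. Across all 17710 genes tested 16.4% were higher and 15.8% lower by the same rule. Power depends on level, and 43 of the 46 genes had a mean of at least 1000 normalized counts. Among all 6988 genes at that level 29.8% were higher and 19.2% lower, and the 17 of 46 are to be read against those shares. The median log2 fold change of the 46 genes was 0.12, against 0.005 over all genes tested and 0.07 over those with at least 1000 normalized counts. At the study's thresholds (adjusted p under 0.001 with a fold of 2 or more), *Psmg4* was called (lower), where 1.36% of all genes were called higher and 3.15% lower. Both KO-labelled libraries lay above both WT libraries for 28 of the 46 genes and below for 8, where 35.4% and 34.8% of all genes tested were separated in these directions. Those shares are over genes of all levels, and none was computed for genes with at least 1000 normalized counts. The summed counts of all proteasome genes were 9135 and 8991 CPM (counts as a share of the library's total, scaled to one common total) in WT and 9978 and 10139 CPM in KO-labelled libraries.

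**Figure D1:**
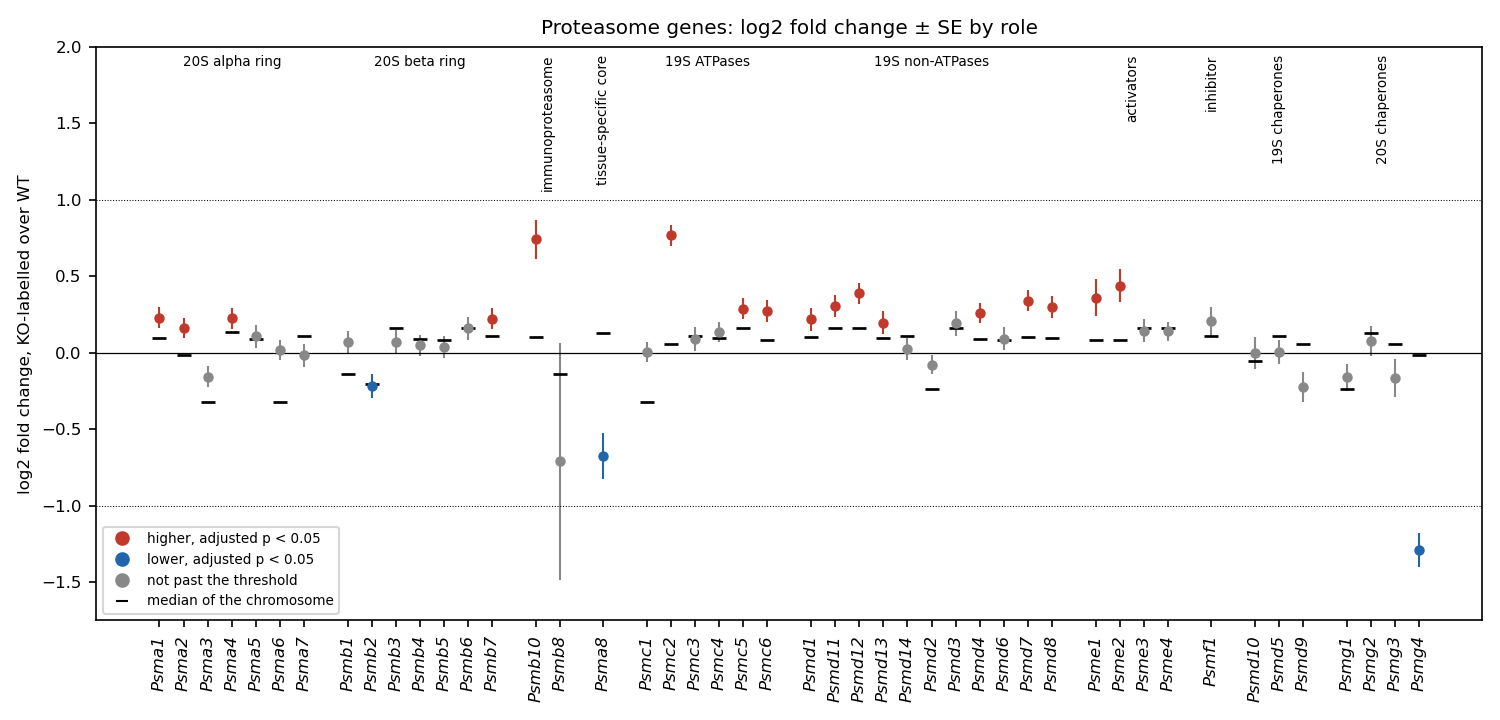
Log2 fold change (KO-labelled over WT, points with SE) of the 46 tested proteasome genes, grouped by role, with the median of the gene's chromosome as a black dash and dotted lines at a fold of 2. Red and blue points are higher and lower at an adjusted p under 0.05 and grey points are not past it. Of the 17 higher genes 10 are 19S subunits, 4 core subunits, 2 activators and 1 an immunoproteasome subunit, with *Psmc2* and *Psmb10* highest, and *Psmg4* is the one gene beyond a dotted line.

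The 19S regulatory particle held most of the genes that rose. Of its 17 tested subunits 10 were higher, none was lower and 7 did not pass the test, with a median log2 fold change of 0.22. Of all genes with at least 1000 normalized counts 29.8% were higher. With chromosome medians removed 6 of the 17 were higher, where 12.4% of all genes at any level were. The summed counts of the particle were 4467 and 4409 CPM in WT and 5135 and 5181 CPM in KO-labelled libraries. Among the 6 ATPases that unfold substrates, *Psmc2*, *Psmc5* and *Psmc6* rose, while *Psmc1*, *Psmc3* and *Psmc4* stood at 0.005, 0.09 and 0.14 on the log2 scale and did not pass. With chromosome medians removed *Psmc5* went from 0.29 to 0.12 (adjusted p = 0.17) and was not called. *Psmc6* stood at 0.19 in that fit (adjusted p = 0.040), and its call held in 8 of 10 alternative settings.

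*Psmc2*, which encodes the ATPase Rpt1, had the largest rise among the proteasome genes, with *Psmb10* close to it and ahead without WT replicate 2 (0.76 against 0.72) and without KO-labelled replicate 1 (0.82 against 0.80). It lies on chromosome 5 (mm9, positions 21291101 to 21309605, plus strand) and had 12049 and 11211 normalized counts in WT and 19519 and 20133 in KO-labelled libraries. The groups were far apart compared with the spread within them. The log2 fold change was 0.77 ± 0.07 (SE, 95% interval 0.63 to 0.91, DESeq2 adjusted p = 1.22e-26), a fold of 1.71. Rpt1 pairs with Rpt2, encoded by *Psmc1*, when the ATPase ring is built, with *Psmd5* as chaperone and *Psmd2* as the scaffold that joins them. These partners stayed near 0 on the log2 scale, at 0.005 ± 0.07 for *Psmc1*, 0.004 ± 0.08 for *Psmd5* and -0.08 ± 0.07 for *Psmd2*, and none passed the test. For *Psmc1*, on chromosome 12 with a median of -0.32, and for *Psmd2* the contrast was smaller in the fit without chromosome medians. With chromosome medians removed *Psmc1* stood at 0.32 (adjusted p = 7.67e-06), *Psmd2* at 0.16 (adjusted p = 0.054) and *Psmd5* at -0.10 (adjusted p = 0.37), against 0.71 for *Psmc2*. Per exonic length and without that removal, *Psmc2* stood at 21.6% and 20.6% of *Psmc1* in WT and at 35.8% and 35.9% in KO-labelled libraries. Of the exonic bases of *Psmc2*, 20.4% occur as exact 50-base copies elsewhere in the genome, where reads can be lost or misplaced.

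Of the 11 tested non-ATPase subunits of the 19S particle, 7 rose, where 29.8% of all genes with at least 1000 normalized counts did. *Psmd12*, the lid subunit Rpn5, had 10358.5 and 10094 normalized counts in WT and 13359 and 13414 in KO-labelled libraries. With libraries of a group this close together, its log2 fold change was 0.39 ± 0.07 (adjusted p = 7.99e-08). *Psmd7*, the lid subunit Rpn8 that pairs with the deubiquitinase, had 11357 and 11344 in WT and 13860.2 and 14873 in KO-labelled libraries, a log2 fold change of 0.34 ± 0.07 (adjusted p = 1.01e-05). Smaller rises of 0.20 to 0.30 on the log2 scale were found for *Psmd11*, *Psmd8*, *Psmd4*, *Psmd1* and *Psmd13*. The first 3 held in 8, 9 and 7 of 10 alternative settings, and *Psmd1* and *Psmd13* in 5 and 4. In the fit with chromosome medians removed, *Psmd11* (0.14, adjusted p = 0.15), *Psmd4* (0.17, adjusted p = 0.051), *Psmd1* and *Psmd13* were not called. That left 3 of the 7, in a fit where 12.4% of all genes at any level were higher. *Psmd4* is the ubiquitin receptor Rpn10. *Psmd14*, the deubiquitinase Rpn11 itself, had 7664 and 7433 normalized counts in WT and 7837 and 7534 in KO-labelled libraries, and these overlapped. The last 3 subunits that did not pass, *Psmd2*, *Psmd3* and *Psmd6*, stood at -0.08, 0.19 and 0.09.

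Of the 14 constitutive subunits of the 20S core 4 were higher, 1 was lower and 9 did not pass, shares no larger than the 29.8% and 19.2% of all genes at that level. The median log2 fold change was 0.07, and lay between 0.029 and 0.14 with 1 library left out. The core summed to 3518 and 3420 CPM in WT and 3627 and 3752 CPM in KO-labelled libraries. The difference between the core and the 19S list was not tested. In the alpha ring *Psma1* and *Psma4* rose by 0.23 each and *Psma2* by 0.16, calls that held in 6, 5 and 3 of 10 alternative settings, whereas *Psma3* stood at -0.16 and *Psma5*, *Psma6* and *Psma7* between -0.02 and 0.11 without passing. The same held for the beta subunits *Psmb1*, *Psmb3* and *Psmb4*, which line the inner rings without cutting sites and stood between 0.05 and 0.07.

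Among the cutting subunits, *Psmb7*, which carries the trypsin-like site, had 14707 and 14341 normalized counts in WT and 16387 and 17507 in KO-labelled libraries, a log2 fold change of 0.22 ± 0.07 (adjusted p = 0.0053). It was past the threshold in 6 of 10 alternative settings. *Psmb5*, with the chymotrypsin-like site, had 6332 and 6309.6 in WT and 6333 and 6660.2 in KO-labelled libraries, which is a log2 fold change of 0.04 ± 0.07 (adjusted p = 0.75). Of its exonic bases 77.2% occur in exact copies elsewhere. *Psmb6*, with the caspase-like site, stood at 0.16 ± 0.07 (adjusted p = 0.087). *Psmb2*, a beta subunit without a cutting site, had 8109.9 and 8226 normalized counts in WT and 6654 and 7393 in KO-labelled libraries. Its log2 fold change of -0.22 ± 0.08 (adjusted p = 0.019) was close to the median of its chromosome, chromosome 4, at -0.21. It was past the threshold in 4 of 10 alternative settings.

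**Figure D2:**
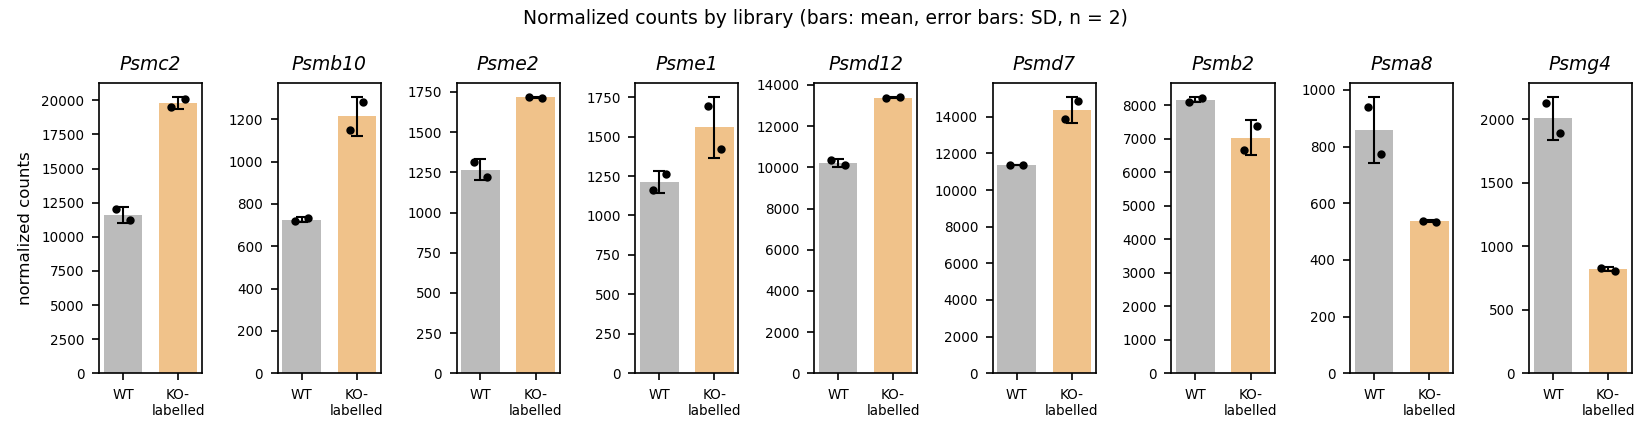
Normalized counts of the 6 proteasome genes with the largest rises past the test and the 3 that fell, 1 panel per gene with its own axis from 0, with points for libraries, bars for the mean and error bars for the SD (n = 2 per group). Groups that do not overlap were part of the rule that chose these genes. As a ratio the gap between the nearest libraries is narrowest for *Psmb2* (8109.9 in WT against 7393).

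Of the immunoproteasome subunits, *Psmb10* was the only one that could be measured well, and it rose. *Psmb10* (beta2i, chromosome 8, mm9 positions 108459628 to 108462292, minus strand) had 717 and 735 normalized counts in WT and 1149 and 1279 in KO-labelled libraries. The gap is several times the spread within either group, and the log2 fold change was 0.74 ± 0.13 (95% interval 0.49 to 0.99, adjusted p = 8.49e-08), a fold of 1.67. It remained far below its constitutive counterpart. Per exonic length it stood at 4.66% and 4.90% of *Psmb7* in WT and at 6.70% and 6.98% in KO-labelled libraries. *Psmb8* (beta5i) was nearly silent, with 20 and 18 raw counts in WT and 18 and 16 in KO-labelled libraries. Its level per length was 0.141% and 0.105% of *Psmb5* in WT and 0.083% and 0.063% in KO-labelled libraries. The log2 fold change of -0.71 ± 0.77 (adjusted p = 0.55) has a 95% interval from -2.23 to 0.81. It contains the value of *Psmb10*, so a rise of that size was not excluded, and so few counts resolve little. Whether the 2 genes differ in response was not tested.

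*Psmb9* (beta1i) is listed at 0 in every library in both of its annotated forms, on chromosome 17 (mm9, 34318932 to 34324697 and 34318933 to 34324709, minus strand). The forms share 99.97% and 99.7% of their exonic bases on the same strand. Among the rows of the count file, 108 of the 112 protein-coding rows with at least 99% of their exonic bases inside another gene of the same strand had no count (96.4%), against 18.0% of other protein-coding rows. The 0 of *Psmb9* is therefore no measure of its RNA. The second *Psmd14* row lies wholly inside the first and is also at 0.

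Markers of leukocytes, which normally hold the immunoproteasome, moved with *Psmb10* in part. The 8 markers summed to 361 and 334 normalized counts in WT and 723 and 691 in KO-labelled libraries. *Cd74* went from 129.9 and 124 to 441 and 448, and *Itgam* from 23.9 and 30.5 to 155 and 144. *H2-Ab1* was lower, at 82.2 and 73.0 against 33.1 and 32.9, a call that held in 4 of 10 alternative settings. The pan-leukocyte marker *Ptprc* and the myeloid marker *Lyz2* were at 0 in 3 libraries and at 1.74 normalized counts in the other. Of the 4 markers tested 2 were higher and 1 was lower, where 16.4% and 15.8% of all genes tested were. Their part in the result for *Psmb10* was not tested, and in bulk RNA more cells of a type and more RNA per cell cannot be told apart.

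Genes of antigen presentation and interferon signalling, which use or induce the immunoproteasome, went both ways. Of 16 tested, 6 were higher, 2 lower and 8 did not pass, where 16.4% of all genes tested were higher and 15.8% lower. edgeR called 6 higher and 4 lower. *H2-D1*, a class I heavy chain, had 270.5 and 331 normalized counts in WT and 979.6 and 920.3 in KO-labelled libraries, a log2 fold change of 1.65 ± 0.16 (adjusted p = 3.71e-23), with 33.3% of its exonic bases in copies. *Tapbp*, which helps load peptides, rose by 0.55 and *Irf1*, an interferon-induced activator, by 0.38. *H2-K1* rose by 0.37, with 41.1% of its bases in copies, and was past the threshold in 5 of 10 alternative settings. *Calr* and *Pdia3*, chaperones that help class I molecules fold, rose by 0.34 each. The 2 lower ones were the interferon gamma receptor genes, *Ifngr2* at -1.27 and *Ifngr1* at -0.74. With chromosome medians removed *Ifngr1*, on chromosome 10 with a median of -0.35, stood at -0.39 (adjusted p = 0.17) and *Irf1* at 0.22 (adjusted p = 0.13). In that fit 5 genes of the list were higher and 1 lower, where 12.4% of all genes were higher and 14.9% lower. *Tap1* and *Tap2*, the peptide transporter that neighbours *Psmb8* and *Psmb9*, stood at -0.65 and -0.90 without passing.

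Of the 4 activators that replace or join the 19S cap, 2 rose and 2 did not pass the test, where 29.8% of all genes with at least 1000 normalized counts rose. Once chromosome medians were removed, 1 of the 4 was higher, where 12.4% of all genes at any level were. *Psme2* (PA28 beta) had 1314 and 1221 normalized counts in WT and 1719 and 1715 in KO-labelled libraries, a log2 fold change of 0.44 ± 0.11 (adjusted p = 0.00026), with 37.6% of its exonic bases in copies. Its partner *Psme1* (PA28 alpha) had 1163 and 1263 in WT and 1695 and 1422 in KO-labelled libraries. The wider spread of *Psme1* gave 0.36 ± 0.12 (adjusted p = 0.012), and the call held in 5 of 10 alternative settings. PA28 alpha and beta are interferon-induced and assemble into one ring. The nuclear activator *Psme3* (PA28 gamma) and *Psme4* (PA200) stood at 0.14 each and the inhibitor *Psmf1* (PI31) at 0.21, none past the test. Per length *Psme1* stood at 14.8% and 14.3% of *Psme3* in WT and 18.5% and 15.4% in KO-labelled libraries.

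Of the 7 assembly chaperones tested none was higher and 1, *Psmg4*, was lower, against 29.8% and 19.2% of all genes with at least 1000 normalized counts. *Psmg4* encodes PAC4, which pairs with PAC3 (*Psmg3*) to build the alpha ring, and lies on chromosome 13 (mm9, 34254833 to 34270041, plus strand). It had 2127 and 1888 normalized counts in WT and 832 and 808 in KO-labelled libraries, so both KO-labelled libraries lay far below both WT libraries. The log2 fold change was -1.29 ± 0.11 (95% interval -1.51 to -1.07, adjusted p = 4.53e-28). *Psmg3* had 1469 and 1225 in WT and 1236 and 1164 in KO-labelled libraries, and the groups overlapped. Per exonic length *Psmg4* fell from 219% and 233% of *Psmg3* in WT to 102% and 105% in KO-labelled libraries. The other pair of core chaperones, *Psmg1* and *Psmg2*, stood at -0.16 ± 0.09 and 0.08 ± 0.10 without passing. Of the 19S chaperones *Psmd9* stood at -0.22 (adjusted p = 0.069), *Psmd5* at 0.004 and *Psmd10* at -0.002, none past the test. *Psmd9* was called lower by edgeR (adjusted p = 0.021) and with chromosome medians removed (adjusted p = 0.020).

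The tissue-specific core subunits are *Psma8*, the testis form of *Psma7*, and *Psmb11*, the thymus form of *Psmb5*. *Psma8* had 941 and 775 normalized counts in WT and 539 and 534 in KO-labelled libraries, a log2 fold change of -0.68 ± 0.15 (adjusted p = 5.29e-05). Per exonic length it stood at 12.4% and 11.4% of *Psma7* in WT and at 7.76% and 7.34% in KO-labelled libraries. *Psmb11* had 6 and 8 raw counts in WT and 5 and 3 in KO-labelled libraries, too few for a comparison.

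**Figure D3:**
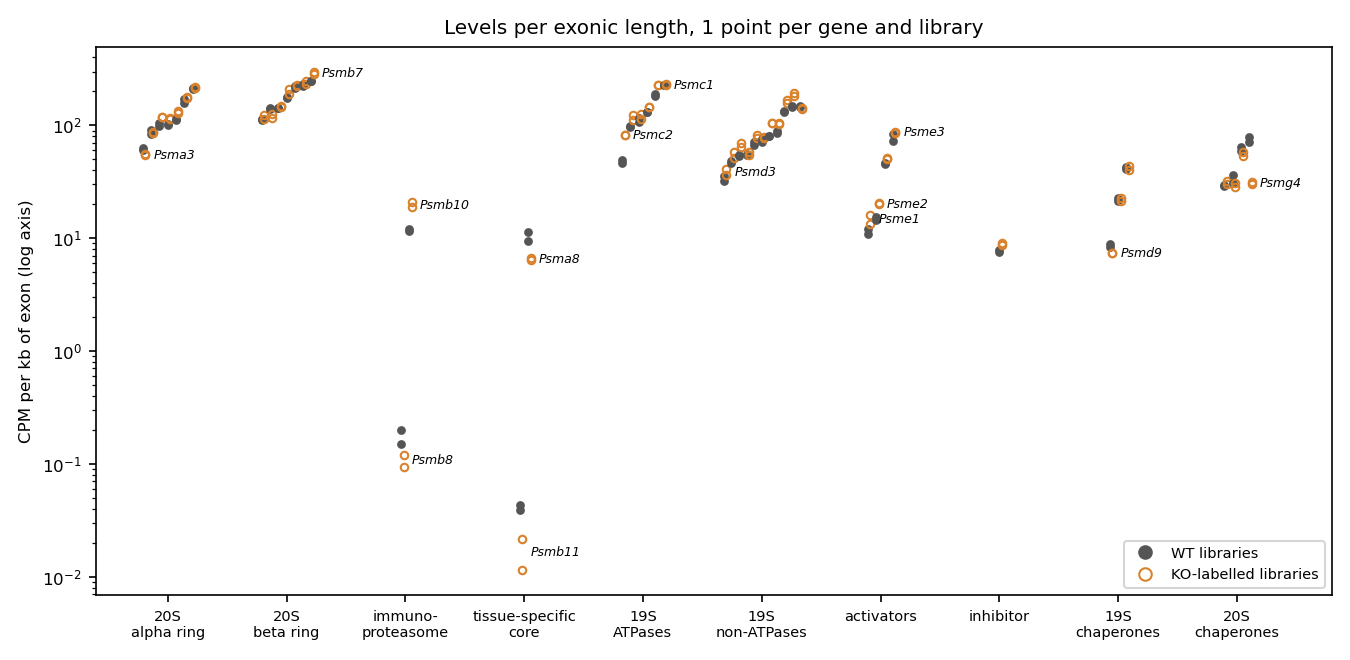
Levels per exonic length (CPM per kb of exon, log axis) of each proteasome gene with a count, by role, with filled points for WT and open points for KO-labelled libraries. Constitutive core and 19S subunits lie between 32.1 and 298, *Psmb10* and *Psma8* lower and *Psmb8* and *Psmb11* far below, and *Psmg4* and *Psmc2* show the widest gaps between filled and open points among the abundant genes.

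Subunits of one particle did not have equal levels. Per exonic length the 14 core genes ran from *Psma3* (55.1 to 62.5 CPM per kb over the 4 libraries) to *Psmb7* (247 to 298), with a coefficient of variation among genes of 39.0% and 38.9% in WT and 41.1% and 41.6% in KO-labelled libraries. The 17 genes of the 19S particle ran from *Psmd3* (32.1 to 41.3) to *Psmc1* (227 to 230.3), with coefficients of 52.9%, 53.1%, 48.6% and 50.2%. The same genes were lowest and highest in every library. These lengths count all annotated exons of a gene, so levels of genes with long unused exons are understated.

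The log2 fold changes varied with the chromosome on which a gene lies. Medians over all genes with at least 50 normalized counts ran below -0.1 on chromosomes 4, 12, 16 and 17, which hold proteasome genes. Of the 8 tested proteasome genes there (*Psma3*, *Psma6*, *Psmc1*, *Psmd2*, *Psmg1*, *Psmb2*, *Psmb1* and *Psmb8*), none was higher and 1 was lower, with a median of -0.12. The other 38 had a median of 0.16, with 17 higher and 2 lower. Chromosomes were split by the medians of all their genes, and the share of all genes called on each side was not computed. The counts are therefore not read as a trait of proteasome genes. Across the 46 genes, which share the same 4 libraries, Pearson's r between the log2 fold change and the chromosome's median was 0.355 and Spearman's rho 0.427, given as a description. Chromosome 12 had a median of -0.32, and its 3 proteasome genes stood at -0.16, 0.02 and 0.005. On chromosome 11 the median was 0.16 and that of its 8 proteasome genes 0.18.

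With the median of each chromosome removed from the fit, 11 proteasome genes were higher and 3 lower, where 12.4% of all genes were higher and 14.9% lower. Those shares are over genes of all levels. No share for genes with at least 1000 normalized counts was computed in this fit, so level was not matched. Of the 11 genes, 8 were among the 17 above (*Psma2*, *Psmb10*, *Psmc2*, *Psmc6*, *Psmd12*, *Psmd7*, *Psmd8* and *Psme2*), and *Psma6*, *Psmb1* and *Psmc1* were called in addition. *Psmg4* and *Psma8* stayed lower, *Psmb2* did not, and *Psmd9* was added. The median of the 19S genes was then 0.14 and that of the 20S core 0.05. Copy number was not measured, and the part of the chromosomes in the result was not tested beyond this fit.

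**Figure D4:**
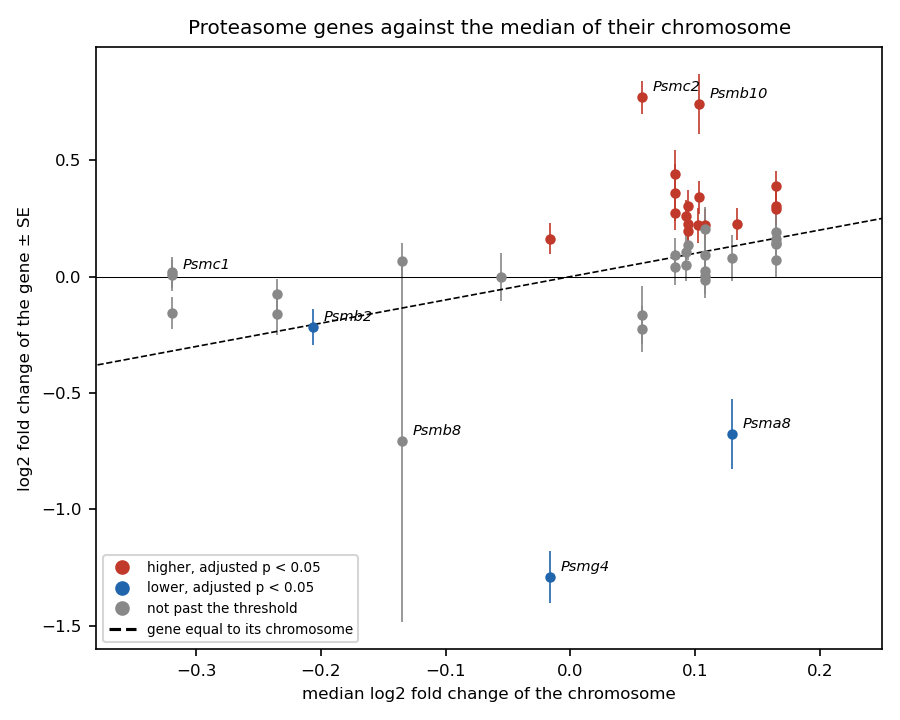
Log2 fold change of each of the 46 tested proteasome genes (with SE) against the median log2 fold change of its chromosome, with a dashed line where the gene equals its chromosome. Points at chromosome medians under -0.1 hold no higher gene, and the share of all genes called there was not computed. *Psmc2*, *Psmb10*, *Psmg4* and *Psma8* lie far from the line.

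Genes that work with the proteasome but fall outside the name rule were taken as 3 further lists. Of 10 factors bound to the proteasome 3 were higher, a share close to the 29.8% of all genes at that level, none was lower and 7 did not pass. These were the deubiquitinases *Uchl5* (0.28 ± 0.08, adjusted p = 0.0018) and *Usp14* (0.27 ± 0.07, adjusted p = 0.00051), and *Txnl1* (0.20 ± 0.07, adjusted p = 0.017), a thioredoxin-like protein of the 19S particle. *Pomp*, the maturation factor of the core, had 6157 and 5708 normalized counts in WT and 6574 and 6537 in KO-labelled libraries and stood at 0.14 without passing. Of 15 genes for ubiquitin, its activation and the delivery of substrates, 3 were higher and none lower, a share under the 29.8% of abundant genes. The higher ones were the polyubiquitin gene *Ubb* (0.26), the segregase *Vcp* (0.23) and its cofactor *Nploc4* (0.23), with 62.3% and 62.6% of the exonic bases of the first 2 in copies. The calls of *Ubb*, *Vcp* and *Nploc4* held in 8, 7 and 5 of 10 alternative settings. With chromosome medians removed *Ubb* and *Nploc4* were not called (0.10 and 0.07) and *Vcp* stood at 0.44. In that fit *Uchl5*, *Usp14* and *Txnl1* were not called either (0.18, 0.14 and 0.07). Other genes were called in it, namely *AI314180* and *Akirin2* as higher among the bound factors (0.36 and 0.28), and in the ubiquitin list *Uba1*, *Ufd1l* and *Rad23b* as higher and *Rps27a* as lower.

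Of 11 regulators linked to proteasome genes, 3 were higher, 2 were lower and 6 did not pass (27.3% and 18.2%, against 29.8% and 19.2% of all genes with at least 1000 normalized counts). *Hsf1*, the heat shock regulator, had 786 and 819 normalized counts in WT and 1252 and 1206 in KO-labelled libraries, a log2 fold change of 0.61 ± 0.12 (adjusted p = 4.40e-06). *Nfe2l1* rose by 0.24 ± 0.07 (adjusted p = 0.0068), but the call held in 5 of 10 alternative settings and the value was 0.07 (adjusted p = 0.55) with chromosome medians removed. *Nfe2l2*, its relative, stood at -0.01. *Keap1*, which targets the *Nfe2l2* product for degradation, had 1567 and 1607 in WT and 1169 and 1163 in KO-labelled libraries, a log2 fold change of -0.45 ± 0.11 (adjusted p = 0.00023). Of the 3 CCAAT-binding subunits *Nfya* stood at 0.29 (adjusted p = 0.0034), *Nfyb* at 0.11 without passing and *Nfyc* at -0.37 (adjusted p = 0.00031, 55.5% of its exonic bases in copies). After removal of the chromosome medians *Nfya* and *Nfyb* were higher (0.43 and 0.46) and *Nfyc* was not called (-0.16, adjusted p = 0.18).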

How the data were processed

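Per the study's methods, stranded libraries depleted of ribosomal RNA were sequenced as paired 75-base reads, mapped to mm9 with STAR and assigned to GENCODE vM1 genes with featureCounts. The deposited values are the authors' raw read counts per gene. Tool versions, the strand setting and the treatment of multi-mapping reads or overlapping genes are not given in the sources used here. The labels and the methods name different instruments.

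All 37310 gene identifiers matched the annotation, and table columns were matched to samples by name. DESeq2 1.42.0 in R 4.3.3 was fitted to all genes (Wald test with group as the one term, at default settings), the tool the study names, with p-values adjusted over the 17710 genes tested. Positive log2 fold changes are higher in KO-labelled libraries. The script was tested on simulated counts. Alternatives were TMM and upper-quartile factors, at least 10 counts in at least 2 libraries, edgeR 4.0.16 (quasi-likelihood), a replicate block, chromosome medians removed as gene-wise factors, members with over 20% of bases in copies left out, and each library left out.

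Levels per length are CPM per kb of exon. Copies are exact 50-base matches elsewhere in the mm9 genome. Depth limits low genes in the WT libraries first, and intervals cover the spread between these libraries.

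The genes, role lists, related lists and markers were chosen with earlier results of these data known. Up to 6 proteasome genes per direction with the largest changes past the test were chosen to be given with values. They needed a mean of at least 50 and groups that do not overlap. The immunoproteasome genes, their constitutive counterparts and up to 4 genes per direction in each related list were also chosen. Some of these are given without counts or SE. Other genes with full values were chosen after their values were seen. Each role is stated as background. One gene was left out of the antigen presentation list and its counts and is not reported here.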

Additional observations from a re-analysis of the deposited data

How the results depend on the processing

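The count of 17 higher proteasome genes became 10 with the replicate block and 11 with chromosome medians removed, and ranged from 8 (without WT replicate 2) to 13 when 1 library was left out (9 without KO-labelled replicate 2). It was 23 with upper-quartile factors, 15 with edgeR and 14 without members with over 20% of bases in copies. The count of 3 lower genes ranged from 1 (without WT replicate 1) to 3 with 1 library left out, and was 4 with the count filter and with edgeR. When a group was left with 1 library, that library was assumed to vary like the others. The median log2 fold change of 0.12 became 0.16 with upper-quartile factors and 0.084 with chromosome medians removed, and ranged from 0.11 to 0.15 with 1 library left out. For the 19S genes (0.22) these values were 0.26, 0.14 and 0.22 to 0.25, and for the 20S core (0.07) leaving out 1 library gave 0.029 to 0.14. Without members with over 20% of bases in copies the medians were 0.142 for all, 0.24 for the 19S genes and 0.105 for the core. With chromosome medians removed *Psmb5* turned to -0.044 and *Psmb6* to -0.0037, neither past the test. *Psmc2*, *Psmb10*, *Psme2*, *Psmd12*, *Psmd7* and *Psmg4* kept direction and call in all 10 alternatives. *Psma8* missed the threshold without WT replicate 1 (adjusted p = 0.057). *Psme1* missed it with the block, with chromosome medians removed and without either WT library or KO-labelled replicate 1. *Psmb2* missed it in 6 alternatives and *Psmb7* in 4. Same-numbered libraries did not deviate together (r = -0.0177 over 13306 genes), so the numbers were not taken to pair samples. *Psmb9* and the second *Psmd14* row gave no value under any setting. Only 2 libraries per group limit what could be resolved.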
